A study of Dunaliella salina with 9 samples.

Results

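The transcriptome of Dunaliella salina after a step from 150 to 1500 µmol photons m⁻² s⁻¹ was compared with that of cells at 150. Dunaliella salina is a unicellular green alga of saline waters, without a rigid cell wall, known for accumulating glycerol and carotenoids. The members are all transcript clusters with at least 10 counts in 3 or more of the 6 libraries concerned, which kept 31090 of the 76875 clusters listed. Cells had been cultured at 22 °C and an irradiance of 150 in a cycle of 16 h light and 8 h dark, collected in mid-exponential growth and transferred to fresh medium for the treatment. Whether the cells kept at 150 were transferred too is not stated outright, and if they were not, light and the change of medium cannot be told apart. The libraries named LL carry an irradiance of 150, those named HL 1500, and a further group named ML 600, with 3 libraries in each. How long after the step the cells were harvested is not stated in the labels. The labels do not say whether the libraries of a group stem from separate cultures. The p-values below reflect the spread among these samples only, which may be technical.

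Photoacclimation is the set of adjustments by which algae match light harvesting to the light they receive. In strong light, green algae are known to reduce their antenna proteins, to dissipate excess excitation as heat, to replace damaged photosystem II reaction centres and to raise antioxidant defences. The files list clusters by number without gene names, and 0 of the 76875 identifiers matched a gene in the table of the Dunsal1 v.2 assembly. No marker gene could therefore check the organism or the groups. The members are described by level, response, implied length and the kind of counts they hold, and 4 are given by identifier. In RNA from whole cultures, fewer cells with a transcript and less of it per cell cannot be told apart.

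Totals were 17778225 to 18914255 counts in LL and 18799637 to 19643714 in HL, and the members held 99.5% to 99.6% of each. The spread was alike in both groups: the common biological coefficient of variation between replicates was 0.124 in LL and 0.122 in HL over the 23413 clusters with at least 10 counts in all 6 libraries. At the edge of the rule, 805 members had a third-highest count of at least 10 and under 11, and 844 clusters just outside had at least 9 and under 10.

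Between HL and LL, more than 16% of the counts lay on different clusters. For each pair of libraries, the share of counts that would have to move to other clusters to make the libraries equal was computed from the cluster shares. It was 16.0% to 18.2% in the 9 pairs of an LL and an HL library. It was 4.09% to 5.87% within LL and 3.50% to 4.15% within HL, so that no pair within a group came near the lowest pair between groups. The same ordering was found with shares of summed FPKM (fragments per kilobase, scaled to depth), with 17.0% to 19.3% between groups and at most 7.75% within.

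The gain in HL was carried by few clusters and the loss by many. Taking group means, 16.4 percentage points of the counts shifted, and 90 clusters made up 50% of the gain while 532 made up 50% of the loss. The 100 clusters with the greatest gain took 8.53 points, and the 100 with the greatest loss gave up 4.30 points. On shares of FPKM the corresponding numbers were 76 and 647 clusters. These clusters were ranked by the difference itself, so the numbers are a description.

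The HL libraries were accordingly more concentrated. The number of clusters that together held 50% of the counts was 573, 552 and 497 in the LL libraries and 379, 364 and 385 in the HL libraries. The groups did not overlap. The 10 most abundant clusters of each library held 5.82%, 5.27% and 5.59% of the counts in LL and 7.52%, 8.38% and 7.93% in HL. The single most abundant cluster held 0.917% ± 0.15 in LL and 1.74% ± 0.16 in HL (SD, n = 3 each). For each of 6 such measures the groups lay apart, and the exact two-sided permutation test gave p = 0.1 (adjusted p = 0.1), the smallest that 3 against 3 allows.

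**Figure D1:**
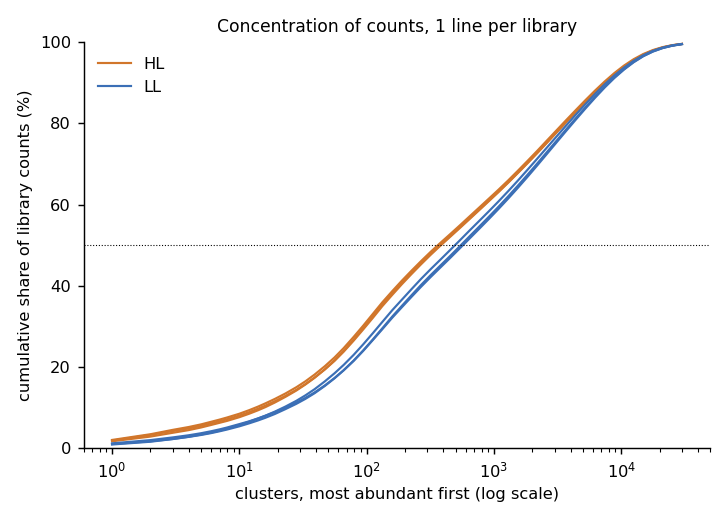
Cumulative share of library counts (%) against the number of clusters, most abundant first (log scale), with 1 line for each of the 3 LL and 3 HL libraries; the dotted line marks 50%. The HL lines lie above the LL lines and reach 50% at 364 to 385 clusters, the LL lines at 497 to 573.

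The set of leading transcripts stayed largely in place while their levels shifted. By FPKM, 8 of the 10 highest clusters were shared in every pair of an LL and an HL library, 87 to 91 of the highest 100, and 802 to 834 of the highest 1000. Within groups, 94 to 100 of the highest 100 and 934 to 958 of the highest 1000 were shared. Of the 10 members with the highest mean FPKM over the 6 libraries, 8 were called higher in HL and 1 lower by edgeR's quasi-likelihood test, against 24.1% and 25.2% of all members. A member was called at a Benjamini-Hochberg adjusted p below 0.05 over all 31090. The first in rank rose from 42252 ± 2722 FPKM in the LL libraries to 77338 ± 6485 in the HL libraries (SD, n = 3 each), with a log2 fold change of 1.13 ± 0.095 (SE). It had an implied length of 81.2 bases. The log2 fold changes of single clusters are from TMM-scaled counts and differ from ratios of the FPKM values, which carry no TMM scaling. Implied lengths are the lengths by which the FPKM values were divided, and the shortest (891 members under 100 bases) may be effective lengths, shorter than the sequence itself. The FPKM of such clusters is uncertain, and the class under 500 bases used below may hold longer sequences. The seventh in rank was the cluster that fell, from 9379 ± 936 to 5567 ± 123 FPKM, with a log2 fold change of −0.58 ± 0.10 (SE). The eighth in rank was not called, with 6202 to 7518 FPKM in LL and 6866 to 7101 in HL.

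Levels per length separated the directions further down the ranking. Of the next 90 members by mean FPKM, 68 were called higher and 3 lower. Of the 900 after these, 430 were higher and 230 lower, and of the following 9000, down to rank 10000, 3589 and 2325. Below that the balance turned, with 3403 higher and 5279 lower of 21090. By counts scaled to depth and not divided by length, calls were counted only in 5 classes of equal size, described below. Abundance class 5, the highest, showed little lean to higher, with 2192 higher and 2040 lower of 6218. With library totals alone class 5 leaned lower, at 1621 and 2836. This class is far larger than the first tiers by FPKM, so the direction of the few most abundant members by counts was not tested. The counts for the tier of 9000 depended on the scaling and became 2651 higher and 3148 lower with library totals alone. The tier of 900 came close to even with library totals alone, at 360 higher and 330 lower. Its median log2 fold change went from 0.18 to 0.03. The other tiers kept their direction with RLE factors, upper-quartile factors and library totals and in DESeq2. In FPKM, the first 10 held 10.2% ± 0.42 of the sum in LL and 14.2% ± 0.68 in HL, the next 90 held 22.5% ± 1.2 and 24.8% ± 0.53, and the members below rank 10000 held 7.70% ± 0.37 and 6.28% ± 0.16 (SD, n = 3 each). Both tiers between lost share although more of their members were called higher. The tier of 900 went from 27.5% ± 0.26 in LL to 25.3% ± 0.20 in HL, and the tier of 9000 from 28.9% ± 0.66 to 26.5% ± 0.22. Shares of FPKM carry no TMM scaling, while the calls do. In no tier did the groups overlap (exact two-sided permutation p = 0.1, the smallest possible).

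Identifiers are given for the 4 clusters with the greatest difference of mean FPKM, 2 higher and 2 lower in HL. They were chosen among called members with an implied length of at least 500 bases and no overlap between the groups. Their differences follow from that choice and are a description. All 4 were among the most abundant transcripts, and the files give them no gene name.

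Cluster-5009.33987, with an implied length of 634 bases, stood at 7755, 6071 and 7327 FPKM in the LL libraries and at 14664, 16955 and 15020 in the HL libraries. Every HL value was well above every LL value, and the cluster moved from rank 5 to rank 2 by mean FPKM. Its log2 fold change was 1.31 (SE 0.13, edgeR adjusted p = 7.32e-05). It stood at 5702, 4637 and 4674 FPKM in the ML libraries, below all LL and HL libraries. Its counts were whole numbers in all 9 libraries.

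Cluster-5009.33833, of 1309 bases, had 8216, 6022 and 6822 FPKM in LL and 12012, 14542 and 13309 in HL. Again the groups lay apart, and the cluster rose from rank 6 to rank 3, with 0.784% to 1.07% of all counts in LL and 1.58% to 1.91% in HL. The log2 fold change was 1.08 (SE 0.11, edgeR adjusted p = 8.45e-05). In ML it was lowest, at 4615, 4805 and 4934 FPKM. Against ML, the log2 fold change in HL was 1.62 for this cluster and 1.79 for the one above (edgeR adjusted p = 3.38e-06 and 5.34e-06), in a comparison in which 62.1% of the members were called.

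Cluster-5009.33638, of 1393 bases, fell from 2346, 2555 and 2574 FPKM in LL to 1383, 1303 and 1338 in HL. The HL libraries lay close together and below all LL libraries, and the rank went from 51 to 111. The log2 fold change was −0.74 (SE 0.067, edgeR adjusted p = 3.67e-05). The ML libraries, at 1630, 1502 and 1520 FPKM, lay between, and the difference from ML to HL did not pass the test (log2 fold change −0.06, SE 0.067, edgeR adjusted p = 0.446). That test used TMM-scaled counts, and no other scaling was tried for it. In FPKM, which carries no TMM scaling, every HL value lay below every ML value.

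Cluster-5009.34250, of 1019 bases, fell from 1677, 1707 and 1920 FPKM in LL to 877, 875 and 840 in HL, and from rank 85 to 142. The log2 fold change was −0.88 (SE 0.082, edgeR adjusted p = 4.21e-05). ML lay between the groups at 1280, 1172 and 1269 FPKM, and the drop from ML to HL passed the test (log2 fold change −0.37, SE 0.082, edgeR adjusted p = 0.00335). Cluster-5009.33833 and both falling clusters held non-whole counts in all 9 libraries. A non-whole count can come from reads that a counting program split between like sequences, which makes these levels less certain. Against LL, all 4 were lower in ML, where 39.2% of the members were called. The log2 fold changes were −0.48, −0.54, −0.68 and −0.50 in the order given (edgeR adjusted p = 0.0154, 0.00429, 6.36e-05 and 0.00115), in a comparison that shares the LL libraries.

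**Figure D2:**
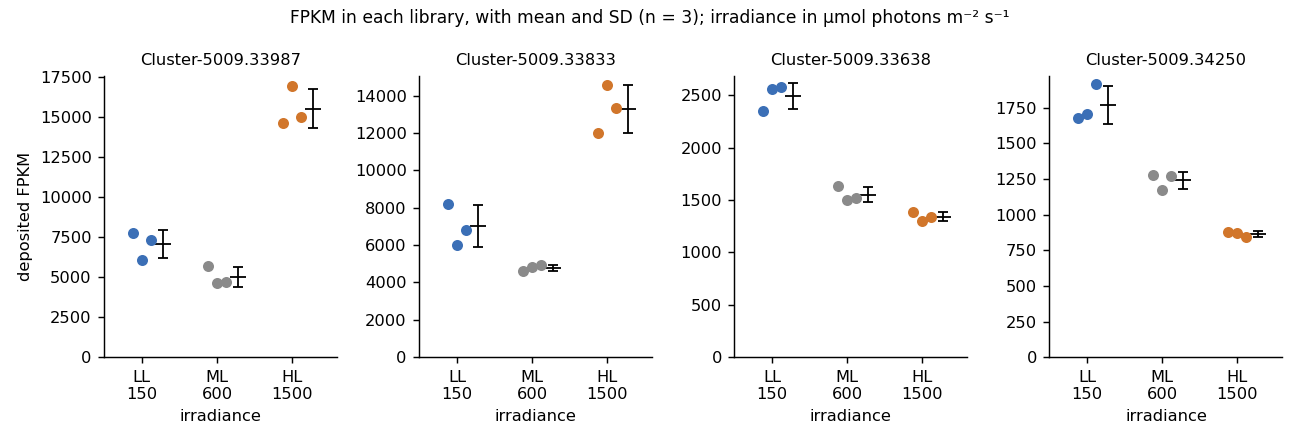
Deposited FPKM of the 4 clusters given by identifier in each library, by irradiance (µmol photons m⁻² s⁻¹); points are libraries and the bar beside them is the mean with SD (n = 3). The leftmost cluster lies at 14664 to 16955 FPKM in HL and at 6071 to 7755 in LL, and the rightmost at 840 to 877 and 1677 to 1920.

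Across all members, 15336 (49.3%) were called between HL and LL, 7498 higher and 7838 lower in HL. Scaling by library totals alone shifted the median over all members from 0.02 to −0.13 on the log2 scale, and 5614 were higher and 9670 lower. How a member passed the rule bore on these counts. Of the 23413 members with at least 10 counts in all 6 libraries, 13321 (56.9%) were called, 6624 higher and 6697 lower. Another 567 members reached 10 counts in the 3 HL libraries and in no LL library, and 704 in the 3 LL libraries and in no HL library. These had to differ in counts, and 385 of the former were called higher and 505 of the latter lower. The remaining 6406 members had mixed patterns, and 17.6% of them were called. Filtering instead on a mean of at least 1 CPM (count scaled to depth) over the 6 libraries, which does not depend on the group, gave 7193 higher and 7247 lower of 25605.

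Changes under 2-fold, in abundant transcripts, carried the largest part of the shift in counts. Members called higher by less than 2-fold numbered 4919 and held 32.3% ± 0.64 of the counts in LL and 40.6% ± 0.35 in HL (SD, n = 3 each). Members called lower by less than 2-fold numbered 4426 and went from 27.1% ± 0.24 to 17.7% ± 0.22. The 2579 members at least 2-fold higher comprised 1927 under 4-fold, which went from 5.24% ± 0.39 to 11.4% ± 0.48 of the counts, 398 of 4- to 8-fold and 254 of 8-fold or more. The last held 0.0263% of the counts in LL and 0.339% in HL. The 3412 members at least 2-fold lower comprised 2857 under 4-fold, which went from 4.92% ± 0.11 to 1.80% ± 0.067, 339 of 4- to 8-fold and 216 of 8-fold or more. These shares describe classes chosen by the change itself.

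**Figure D3:**
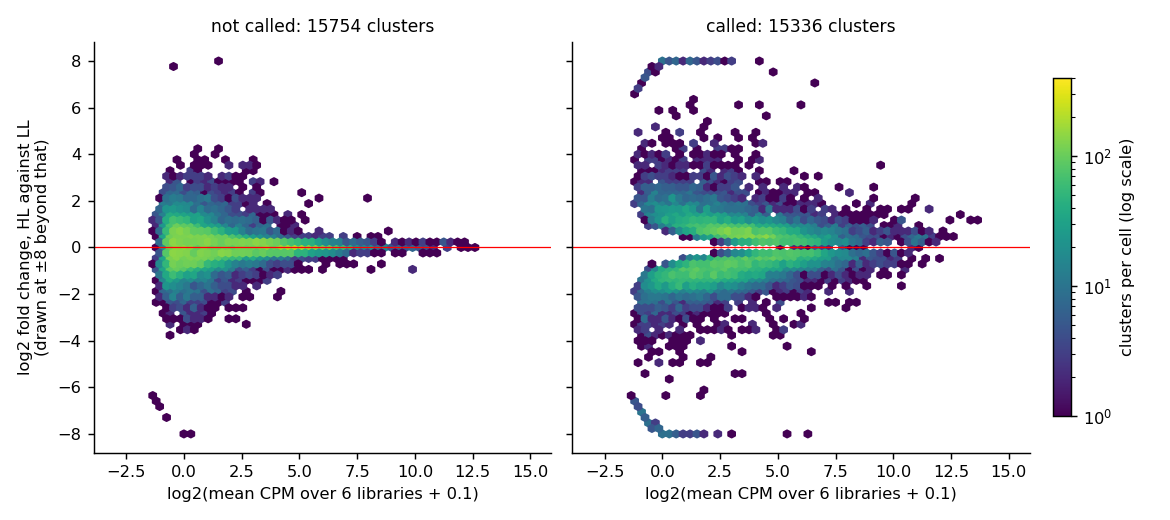
Log2 fold change of HL against LL (edgeR) against log2 of the mean CPM + 0.1 over the 6 libraries, for the 15754 members not called (left) and the 15336 called (right); colour gives clusters per cell on a log scale, and values beyond 8 are drawn at 8. Changes narrow towards abundant clusters, and rows at the upper and lower edge are clusters with no or few counts in 1 group.

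The largest changes were mostly in clusters with few counts in the lower group, which a change of that size favours. The 254 members called at least 8-fold higher had a median of 0.142 CPM in LL and 3.80 CPM in HL, and the 216 at least 8-fold lower 1.88 and 0.0568 CPM. Of the 254, 25 had at least 10 counts in all 6 libraries, and of the 216, 21 had. The 25 had a median of 1.80 CPM in LL (0.793 to 123 over the clusters) and 19.1 CPM in HL (6.95 to 1278), and 3 of them held whole counts in all 6 libraries. The 21 had a median of 46.9 CPM in LL (8.81 to 171) and 3.95 CPM in HL (0.900 to 16.5), and 7 of them held whole counts. In all 25 and all 21 the HL and LL libraries did not overlap, which changes of that size all but fix.

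Presence in only 1 of the LL and HL groups was rare. No count in any LL library and at least 10 in every HL library was found for 62 clusters, and the reverse for 93. Most of them had counts in ML. Of the 62, 5 had no count in any ML library and 11 had at least 10 in all 3. Of the 93, 2 had no count in any ML library and 23 had at least 10 in all 3. Against a floor of 3 counts per library, the 62 were at least 14.0-fold higher in HL at the median, and 1 of them at least 195-fold. The 93 were at least 8.90-fold lower at the median, and 1 of them at least 511-fold. Whole counts in all 6 libraries were held by 9 of the 62 and 32 of the 93, so most of them held non-whole counts. Together the 62 held 232 CPM in HL and the 93 held 287 CPM in LL. Floors cover counting error only.

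Many members were measured well enough to bound their change. The 95% interval of the log2 fold change lay wholly within 1.5-fold either way for 6400 members (20.6%), of which 2332 were called. It lay wholly beyond 1.5-fold for 2426 higher and 3235 lower members, and the other 19029 were undecided. These intervals are relative to the TMM scaling and do not cover the choice of scaling. With library totals alone 6377 members were bounded, while the median over all members moved from 0.02 to −0.13 on the log2 scale. The undecided were mostly rare: with the members divided by the mean of log2(CPM + 0.1) over the 6 libraries into 5 abundance classes of equal size, no member was bounded in class 1, the lowest, where the interval reached a median of 1.35 to either side on the log2 scale. In class 5, where it reached 0.15, 3695 of 6218 were bounded. A mean of logs places clusters near 0 in 1 group in a lower class than their mean CPM would. With classes by mean CPM, 0 members were bounded in class 1 and 3633 in class 5. Of the members not called, 4068 were bounded and 11686 were not, so for the latter a missed threshold does not show that the level stayed the same.

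**Figure D4:**
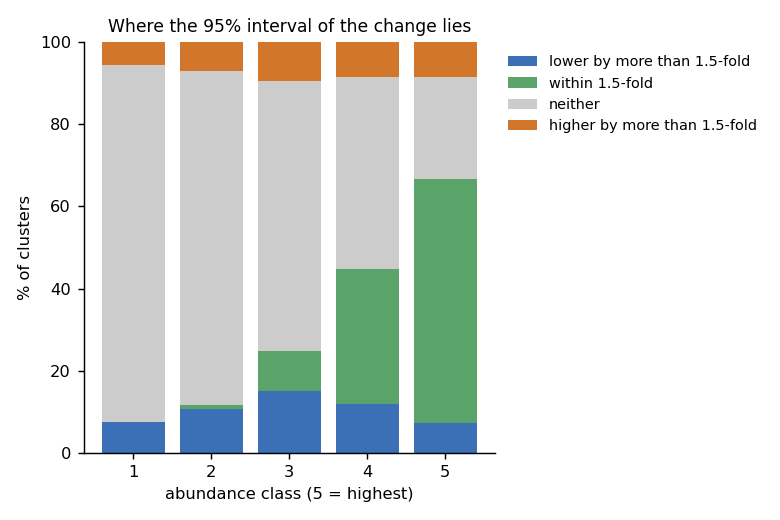
Percentage of members in each abundance class (mean of log2(CPM + 0.1) over the 6 libraries, 5 the highest) whose 95% interval of the fold change lay below, within, beyond or across 1.5-fold. The class within 1.5-fold grows from 0 of 6218 in class 1 to 3695 in class 5.

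Direction differed with implied length at a given abundance, and the contrast was widest in abundance class 4. In abundance class 4, 516 of 860 clusters under 500 bases were higher in HL and 120 lower, and the median log2 fold change was 0.44. At 2500 bases and over, 106 of 906 were higher and 428 lower, and the median was −0.42. In class 5 the counts were 251 higher and 56 lower of 394 short clusters, and 313 and 676 of 1429 long ones. The medians there were 0.40 and −0.15, a narrower gap than in class 3, at 0.38 and −0.25. Over all lengths, class 4 had 2161 higher and 1833 lower of 6218, and class 5 had 2192 and 2040. Clusters of 500 to under 1000 bases in class 4 followed the short ones with 718 higher and 332 lower, and those of 1000 to under 2500 bases stood at 821 and 953, and at 560 and 1176 with library totals alone. Scaling by library totals left the sign of these medians for the short and long classes, at 0.29 and −0.58 in class 4. With classes by mean CPM, class 4 gave 515 higher and 116 lower short clusters, and 113 and 425 long ones. In class 1 short clusters did not lean upwards, with 212 higher and 282 lower of 1891.

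**Figure D5:**
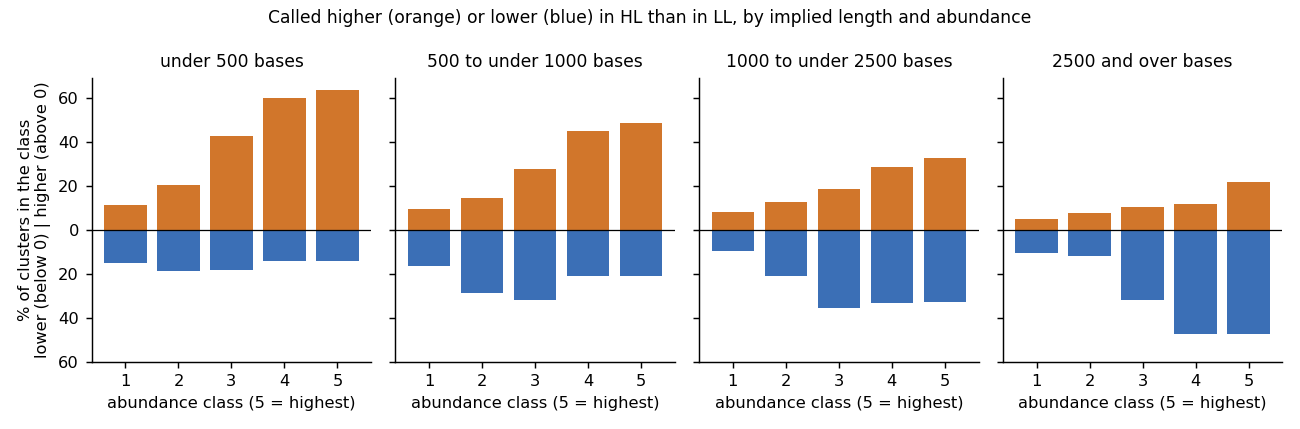
Percentage of members called higher (above 0) or lower (below 0) in HL than in LL, by abundance class, in 4 classes of implied length. Among clusters under 500 bases in class 4, 516 of 860 were higher, and among those of 2500 bases and over 106 of 906. Over all lengths, 2161 of 6218 in class 4 were higher.

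Rare clusters with whole counts were more often lower in HL. Whole counts in all 6 libraries were held by 12851 members, and a non-whole value in at least 1 library by 18239. In abundance class 1, 227 of 2069 whole-count members were higher and 447 lower, and in class 2, 407 of 2459 and 808. Their medians were −0.26 and −0.29 on the log2 scale. For members with non-whole counts in these classes the directions were close to even, at 329 and 341 of 4149 and at 537 and 521 of 3759, but with library totals alone these too leaned lower, at 267 and 406 and at 428 and 637. In class 4 whole-count members leaned the other way, with 1149 higher and 856 lower of 2811, but library totals alone turned this to 825 and 1013. In classes 1 and 2 the lean of whole-count members to lower was found with each of these other scalings too. Whole-count members also had smaller standard errors, with a median of 0.16 against 0.27, and 59.5% of them were called against 42.1% of the others. This contrast depended on abundance. In class 1, 32.6% were called against 16.1%, and in class 5, 69.3% against 67.1%. The median standard errors in class 5 were 0.063 and 0.070.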

How the data were processed

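RNA was extracted with Trizol, and 1.5 µg per sample was made into NEBNext Ultra libraries, per the labels' protocols. The authors deposited, per the file headers, an estimated count and an FPKM value per cluster and library. The estimated counts carry decimals in 27.9% to 31.0% of the 76875 clusters listed. This share includes clusters without a count, as only 52097 to 58203 had any count in a given library. FPKM values were scaled to length and depth by the authors. DESeq 1.10.1 is the tool that the submitters' processing notes list; how clusters were assembled and reads counted is not given in the sources used.

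Rounded counts entered edgeR 4.0.16 (R 4.3.3) with TMM factors (robust quasi-likelihood, group as only term, all 9 libraries, 6 residual degrees of freedom), with Benjamini-Hochberg adjustment over the 31090 members. TMM factors were 1.00 to 1.06 in LL and 0.917 to 0.945 in HL. DESeq2 1.42.0 and limma 3.58.1 on log2(FPKM + 1) or log2(FPKM + 0.1) were alternatives, beside other scalings, filters and sets of libraries. SE was the log2 fold change divided by the root of F. Length was implied from count, FPKM and library total at an FPKM of at least 0.5, for 99.2% of members. Pairs of libraries within a group differed with a chi-square of 6.29 to 10.5 per degree of freedom, well above sampling noise. The named clusters are the 2 in each direction with the greatest difference of mean FPKM among called members of at least 500 bases without overlap between groups. Members and rules were chosen with earlier results of these data known. The most frequent leading number of a cluster identifier, 5009, was carried by 30847 members; the labels do not explain it.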

Additional observations from a re-analysis of the deposited data

Results flagged for a closer look

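The rule used only the LL and HL libraries, and the ML libraries held signal outside it. There were 1838 clusters with at least 10 counts in all 3 ML libraries that did not meet the rule. Their mean count had a median of 19.2 in ML, 7.00 in LL and 5.00 in HL. In 1353 of them all ML libraries lay above all LL libraries, per count of the library total. Together they held 0.227% to 0.253% of the counts in ML and 0.0682% to 0.0822% in LL. They were picked for their ML counts, so the difference is a description.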

How the results depend on the processing

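Across the alternatives, calls between HL and LL numbered 13163 to 15016 with each of the 9 libraries left out in turn, and 13301 without a filter (73051 clusters tested). Of the 15336 calls of the fit reported, 15030 were also made with RLE factors, 14997 in DESeq2 and 13452 with library totals alone. With replicate number as a block on the 6 libraries alone, 11536 were kept. The shared calls had the same sign in each alternative, which passing the threshold in both fits all but fixes. A test against a 1.5-fold minimum asks for more by construction and left 5462 calls, 2339 higher and 3123 lower, and 4522 among clusters at 10 counts in all 6 libraries. Limma on log2(FPKM + 1), which has no TMM scaling and shrinks the change of low values, gave 1321 clusters at least 2-fold higher, against 2579; library totals alone gave 1876 and limma with 0.1 gave 1979. On FPKM shares the top 10 differed by 4.14 points and the top 100 by 6.15, against 2.38 and 5.20 on counts. Of called clusters, 48.9% were higher, 36.7% with library totals alone, and 37.8% and 36.4% with limma at a pseudocount of 1 and 0.1. The 4 named clusters kept direction and call in all 22 alternatives. They were chosen as called members with great differences in the same libraries, which favours this.

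Same-numbered HL and LL libraries did not deviate together (r −0.045 to −0.017), so the numbers were not taken to pair samples. With replicate number as a block there were 14040 calls, and 11834 with the block on the 6 libraries alone, an alternative added after the data had been seen, as were the scalings by FPKM rank and kind of count and the classes by mean CPM. Intervals were widest in the lowest abundance class, where no change was bounded to 1.5-fold.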

Other observations

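The 243 members whose identifiers begin with another number than the most frequent one were called less often, at 31.7% against 49.3% of all members, and had a median standard error of 0.49. Both values lay between those of abundance classes 1 and 2, the lowest. In these, 21.6% and 36.6% were called, and the median standard errors were 0.59 and 0.33. Of the 243, 54 rose and 23 fell in HL at a median log2 fold change of 0.39, and with library totals alone 40 and 27, with a median of 0.24. The labels do not explain the leading number. The whole HL group was above the whole LL group for 9503 members, of which 7412 were called higher, and below for 9369, of which 7760 were called lower (49.3% of members were called in either direction). For 164 called members the groups overlapped.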
